A study of Homo sapiens with 16 samples.

Results

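The 10 genes described here carry the DNA damage checkpoint from the damaged chromosome to the cell cycle engine. They are the kinases ATM and ATR, the ATR partner ATRIP, the effector kinases CHEK1 and CHEK2, the inhibitory kinases WEE1 and PKMYT1, the adaptors CLSPN and TOPBP1, and the phosphatase CDC25A. They were chosen by name, as the rows of the deposited tables whose Ensembl identifiers map to these symbols, and all 10 were found among 26410 genes.

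RNA was measured by sequencing of poly(A)-selected RNA in 16 libraries of SH-SY5Y cells, a human neuroblastoma cell line. The cells were 4 single-cell clones, each grown for 24 h without treatment or with doxorubicin, with 2 replicate libraries of each clone and treatment. A legend of the study gives 24 h for both, whereas the deposited column names of the untreated libraries give a shorter time. Clones KO11 and KO28 were labelled TRPM2 KO and had received Cas9 with a guide against TRPM2, a cation channel gene. Clones Scr13 and Scr16 had received Cas9 with a scrambled guide and served as controls (Scr). All 4 clones had also been transfected with a donor plasmid carrying GFP and puromycin resistance genes and kept under puromycin. Each genotype therefore rests on 2 clones, and differences between genotypes and differences between clones cannot be told apart beyond that number. The doxorubicin dose was 0.3 µM in the sample labels and in the study's methods and legends, whereas the design text of the series gives 3 µM. The study's methods call the replicates of a clone biological, and the labels add nothing on how their cultures were separated. The p-values measure the spread between these libraries.

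Doxorubicin traps topoisomerase II on DNA and leaves double-strand breaks and stalled forks. ATM is known to respond mainly to double-strand breaks and to act through CHEK2, while ATR responds to single-stranded DNA at stalled forks and acts through CHEK1. Both effector kinases restrain the CDC25 phosphatases, and WEE1 and PKMYT1 keep CDK1 phosphorylated and inactive. The pathway is switched on by phosphorylation, which an mRNA measurement does not show. The levels below are mRNA levels only, in normalized CPM, which are read counts divided by an effective library size.

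TRPM2, the edited gene, was examined first in every library. In untreated cells it was at 1.93 and 2.23 normalized CPM in KO11 and at 1.41 and 2.19 in KO28, which were 35, 37, 21 and 30 reads. In untreated Scr13 it was at 0.118 and 0.115 normalized CPM, and in both untreated Scr16 libraries it had 0 reads, where a count of 0 allows up to 0.184 and 0.1704 normalized CPM. After doxorubicin it was at 1.22 and 1.83 in KO11, 1.37 and 0.658 in KO28, 0.0594 and 0.0631 in Scr13, and 1.33 and 0.390 in Scr16. In untreated cells the libraries labelled TRPM2 KO thus held more reads on the targeted gene than the Scr libraries, against the direction of the label. By the study's methods, editing removed the DNA for the first codons and put the rest of the gene out of frame, and the clones were checked by RT-PCR and Western blotting. Reads from the remaining exons therefore do not check the edit, and the tables do not show where in the gene the reads lie. All directions below are those of the libraries labelled TRPM2 KO (KO) against the libraries labelled Scr.

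The libraries held 10481177 to 25086085 reads on genes, with a median of 16037366.5, and the shallowest was a Scr16 library after doxorubicin. Of 12 markers of adrenergic neuroblastoma cells, 10 or 11 were at 1 normalized CPM or more in every library, and STMN2, the most abundant by its mean over the 16 libraries, lay between 1378.75 and 1838.16. DBH, which makes noradrenaline, ranged more widely, from 1204 to 2140 normalized CPM. CHGA, another of the 12, ran from 0.356 to 26.4. TH was near 0, with no reads in 6 libraries. Of 12 markers of mesenchymal or Schwann-like cells, 7 to 9 reached 1 normalized CPM in each library. Of the 9 tested in untreated cells, 4 were higher and 1 was lower in KO, with a median log2 fold change of 1.05. Beside them stand 330 higher and 365 lower of the 14364 genes tested. Of the markers not tested, PRRX1 had no value and the rest were below 1 normalized CPM in too many libraries. Of the 8 tested after doxorubicin, 5 were higher and 1 was lower, with a median of 1.37, beside 659 higher and 607 lower of 14572 genes. Their summed level was 835 to 1136 normalized CPM in the untreated KO libraries and 430 to 893 in untreated Scr. The 893 was in the first untreated Scr13 library, against 430 in the second and 548 and 589 in Scr16. With doxorubicin the sums were 865 to 1201 in KO and 447 to 738 in Scr. The most abundant of these markers by its mean over the 16 libraries, VIM, ran from 87.3 to 430 normalized CPM, and TWIST1 from 160.4 to 325. S100B was at 0 in 7 libraries. The part of these markers in the differences between genotypes was not tested.

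The positions of the checkpoint genes are those of GENCODE 29 on GRCh38. ATM (chr11:108222484-108369102) and ATR (chr3:142449235-142578826) encode the large kinases at the top of the pathway. ATRIP (chr3:48446710-48467645) brings ATR to single-stranded DNA, and TOPBP1 (chr3:133598175-133662380) activates ATR there. CLSPN (chr1:35720218-35769967) encodes claspin, which presents CHEK1 (chr11:125625136-125676255) to ATR at the fork. CHEK2 lies at chr22:28687743-28742422, WEE1 at chr11:9573681-9593457, PKMYT1 at chr16:2968024-2980539 and CDC25A at chr3:48157146-48188402. Some exons are shared with neighbouring genes. PKMYT1 shares 24.5% of its exon bases with PAQR4 and 7.15% with KREMEN2 on the opposite strand, ATRIP shares 27.9% with TREX1 on its own strand, and ATR shares 16.4% with a pseudogene on the opposite strand. The library kit keeps the strand, but whether counting used it is not given in the sources used here, so reads of such pairs are uncertain. CHEK2 has 4 pseudogenes named after it in the annotation, none of which is a row of the tables.

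Promoter sequences were available from RefSeq (GRCh38.p14) for 8 of the 10 genes, in 12 windows of 250 bases before to 50 bases after a transcription start. WEE1 and PKMYT1 were not among them. Those of 4 genes are shown because their mRNA levels moved most alike across the libraries, as described further on. Each runs from 120 bases before to 5 bases after a start, 5′ to 3′ on the gene's own strand, with matches to the motifs below in capitals.
CHEK1, chr11:125626109-125626233, plus strand: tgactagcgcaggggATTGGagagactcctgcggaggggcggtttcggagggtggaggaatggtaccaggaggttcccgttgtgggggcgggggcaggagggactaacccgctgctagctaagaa
CLSPN, chr1:35769974-35770098, minus strand: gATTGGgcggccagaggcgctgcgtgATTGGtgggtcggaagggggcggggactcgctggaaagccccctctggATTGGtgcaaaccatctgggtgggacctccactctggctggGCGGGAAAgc
CDC25A, chr3:48188413-48188537, minus strand: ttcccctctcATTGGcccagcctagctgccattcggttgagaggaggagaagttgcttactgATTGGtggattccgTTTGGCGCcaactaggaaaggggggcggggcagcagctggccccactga
TOPBP1, chr3:133661937-133662061, minus strand: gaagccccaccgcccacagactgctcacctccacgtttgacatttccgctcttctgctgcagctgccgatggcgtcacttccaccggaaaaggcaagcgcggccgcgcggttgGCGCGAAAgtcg

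The search covered both strands and the letters TTTCCCGC, TTTGGCGC, TTTCGCGC or TTTGCCGC, the form of an E2F site, CCAAT, the NF-Y box, and TTTGAA or TTCGAA, the cell cycle homology region. The E2F letters were present in the windows of CLSPN, CDC25A and TOPBP1, at 5, 44 and 7 bases before the start, and in 3.31% of all 35116 windows of the same length. They were not in the windows of CHEK1, CHEK2, ATM, ATR or ATRIP. CCAAT was present in windows of CLSPN, CDC25A, CHEK1, CHEK2, ATM and ATRIP, and in 34.6% of all windows. The cell cycle homology letters were present in 1 ATM window and in 16.4% of all windows. A match describes the letters in a window and is no evidence of binding.

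Levels between genes were compared per kilobase of the principal transcript, in the untreated Scr libraries. PKMYT1 (43.5 normalized CPM per kb), TOPBP1 (39.9) and WEE1 (39.1) stood highest. CDC25A (21.0), CHEK1 (20.8) and CLSPN (19.8) formed a middle group, and CHEK2 (8.66), ATM (7.96), ATR (4.74) and ATRIP (3.73) stood lowest. Within each of the upper groups, and between CHEK2 and ATM, the ranges of the 4 libraries overlapped, so those neighbours were not apart beyond their spread. Per kilobase of the principal transcript, the ranges of the upper, the middle and the lowest group did not overlap, nor did those of ATM and ATR or of ATR and ATRIP. The order depends on the length used: per kilobase of all merged exons, WEE1 was the sixth and TOPBP1 the highest. There ATM (4.37) stood above CHEK2 (3.78), and ATRIP (3.15) just above ATR (3.13), so the order within the lowest group is not settled. The apex kinases ATM and ATR were thus among the 4 least abundant per length. The depth behind single values ran from 113 reads for CHEK2 to 5186 reads for TOPBP1.

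**Figure D1:**
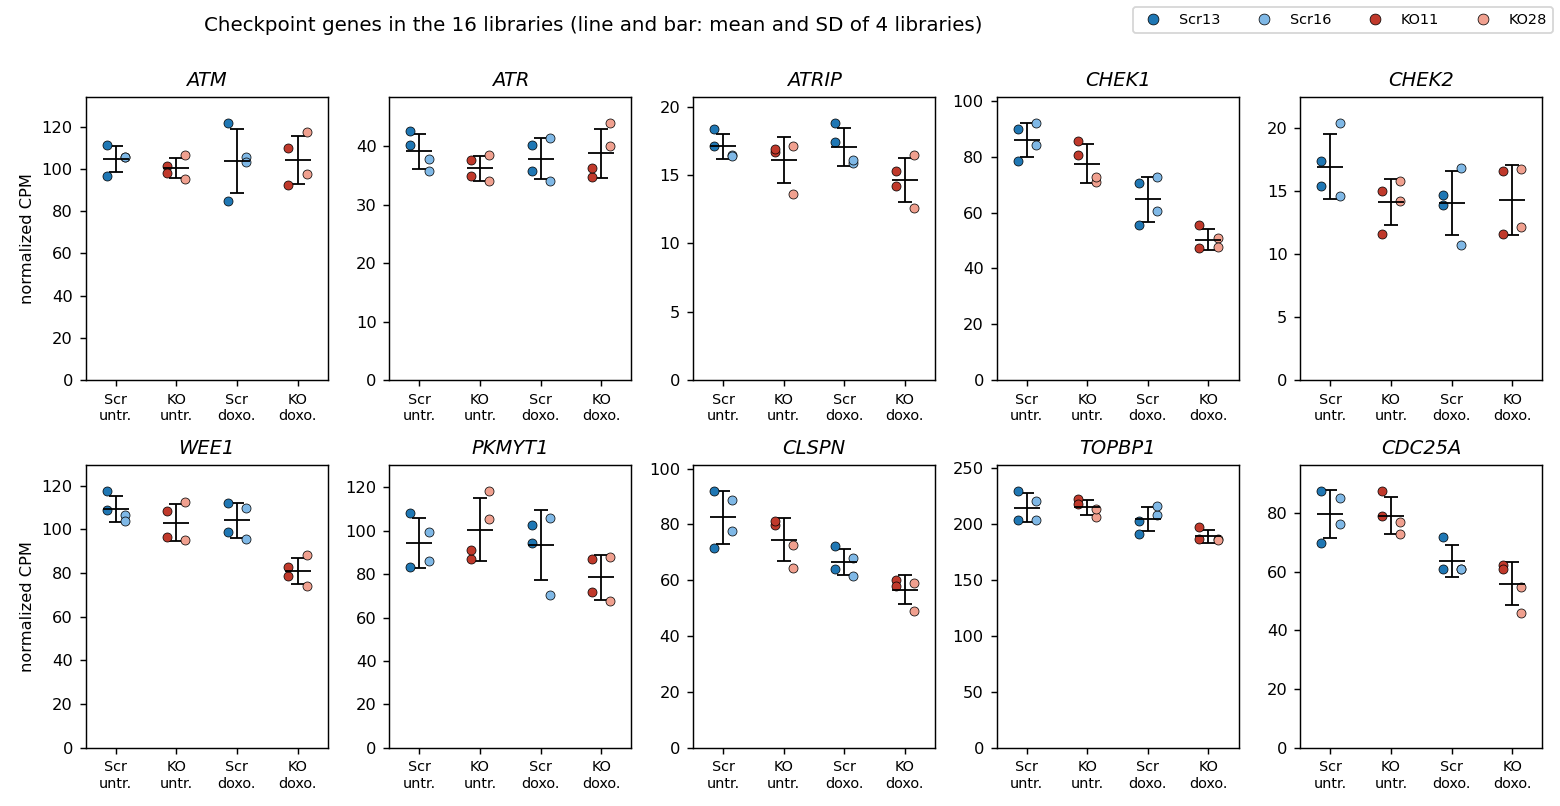
Normalized CPM of the 10 checkpoint genes (vertical axes, from 0) in the 4 groups, with 1 point for each of the 16 libraries coloured by clone and a line and bar for the mean and SD of 4 libraries. CHEK1 falls in both genotypes, from means of 86.2 to 64.9 in Scr and 77.5 to 50.3 in KO, while the points of ATM and ATR overlap in all groups.

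To see how the checkpoint genes respond to doxorubicin in control cells, treated Scr libraries were compared with untreated Scr libraries. CHEK1, CDC25A and CLSPN mRNA fell, and the other 7 genes did not pass the test. None of the 10 genes rose. CHEK1 is the effector kinase of ATR, CLSPN its adaptor at the fork, and CDC25A a phosphatase that activates CDKs, while ATR, ATRIP and TOPBP1 of the same branch had log2 fold changes of -0.05, -0.01 and -0.07.

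CHEK1 was at 78.6 and 89.9 normalized CPM in untreated Scr13 and at 92.2 and 84.1 in untreated Scr16. With doxorubicin it was at 55.7 and 70.5 in Scr13 and at 60.5 and 72.8 in Scr16. Every treated library lay below every untreated one. The log2 fold change of CPM + 1 was -0.41 ± 0.10 (SE, adjusted p = 0.0082, limma), a decrease to 0.751 of the untreated level.

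CDC25A was at 69.7 and 87.4 normalized CPM in untreated Scr13 and 76.2 and 85.0 in untreated Scr16, against 60.8 and 71.7 in Scr13 and 60.7 and 60.7 in Scr16 with doxorubicin. One treated Scr13 library lay above the lowest untreated library, so the groups overlapped. The log2 fold change was -0.32 ± 0.10 (SE, adjusted p = 0.033). CLSPN was at 71.6, 92.2, 88.6 and 77.8 normalized CPM in the untreated Scr libraries and at 63.9, 72.3, 61.6 and 67.9 in the treated ones. Its groups overlapped by 1 library on each side, and its log2 fold change was -0.31 ± 0.10 (SE, adjusted p = 0.043). Both calls were lost in 6 of 8 fits that left out 1 library, with log2 fold changes of -0.33 to -0.27 and adjusted p-values of 0.055 to 0.14 for CDC25A, and -0.34 to -0.25 and 0.055 to 0.18 for CLSPN. They were kept only without the first untreated or the second treated Scr13 library. With no filter on low values none of the 3 decreases was called, with adjusted p-values of 0.063 for CHEK1, 0.12 for CDC25A and 0.14 for CLSPN. The quasi-likelihood test of edgeR on recovered reads did not call CLSPN (adjusted p = 0.052).

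Of the 10 genes, 3 were thus called lower in Scr cells, beside 5.24% of the 14378 genes tested, and 1 had groups that did not overlap in the lower direction, beside 8.53%. Among the genes that did not pass, CHEK2 had a log2 fold change of -0.26 (95% interval -0.62 to 0.10), and WEE1, TOPBP1, ATR, PKMYT1, ATM and ATRIP lay between -0.08 and -0.01. In RNA of whole cultures, fewer cells of a kind and less RNA per cell cannot be told apart.

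Other genes of the cell cycle and of p53 moved with the same treatment in Scr cells. All 14 p53 target genes tested rose, with a median log2 fold change of 1.28, led by BBC3 (1.86 ± 0.12, SE) and BTG2 (1.86 ± 0.12), which promote cell death and restrain proliferation. Of 14 S phase genes, 12 fell and none rose, with a median of -0.50. MCM5, a subunit of the replicative helicase, fell by 0.77 ± 0.11 (SE) on the log2 scale, and UHRF1, which maintains DNA methylation at forks, by 0.71 ± 0.11. Of 14 G2/M genes none was called, with a median of -0.07. The median over all genes tested was -0.01, and that of the 10 checkpoint genes -0.07. The part of the S phase genes in the decrease of CHEK1, CDC25A and CLSPN was not tested.

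The same comparison in the KO clones called 5 of the 10 genes, all lower. CHEK1, CDC25A and CLSPN fell as in the Scr clones, and the CDK1-inhibiting kinases WEE1 and PKMYT1 fell as well. TOPBP1 was lower in all 4 treated libraries than in any untreated one but did not pass the threshold. The treatment and the genotype comparisons share libraries with each other, so their values are given side by side.

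CHEK1 was at 80.8 and 85.7 normalized CPM in untreated KO11 and at 70.9 and 72.7 in untreated KO28, and at 47.5 and 55.5 in KO11 and 50.8 and 47.6 in KO28 with doxorubicin. Every treated library lay below every untreated one. The log2 fold change was -0.61 ± 0.09 (SE, adjusted p = 1.4e-05), the largest decrease among the 10 genes in the comparisons of groups. CDC25A was at 78.7, 87.6, 76.9 and 72.7 normalized CPM in the untreated KO libraries and at 62.2, 60.8, 54.6 and 46.0 in the treated ones. There was no overlap here either, and the log2 fold change was -0.49 ± 0.09 (SE, adjusted p = 0.00020). CLSPN went from 79.7, 81.2, 72.6 and 64.5 normalized CPM to 60.3, 58.1, 59.0 and 48.8, again without overlap, with a log2 fold change of -0.39 ± 0.09 (SE, adjusted p = 0.0026).

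WEE1, which phosphorylates CDK1 in the nucleus, was at 96.8 and 108 normalized CPM in untreated KO11 and at 95.02 and 113 in untreated KO28. With doxorubicin it was at 78.7 and 82.8 in KO11 and at 88.2 and 74.2 in KO28. Treated and untreated libraries did not overlap, and WEE1 had a log2 fold change of -0.34 ± 0.09 (SE, adjusted p = 0.0049). PKMYT1, the membrane-bound kinase with the same target, was at 86.8 and 91.0 normalized CPM in untreated KO11 and at 106 and 119 in untreated KO28, against 87.0 and 71.6 in KO11 and 67.9 and 87.9 in KO28 with doxorubicin. The KO11 libraries overlapped between treatments and the KO28 libraries did not. The log2 fold change was -0.35 ± 0.10 (SE, adjusted p = 0.012). Without the first treated KO28 library it was -0.24 (adjusted p = 0.071), and with no filter on low values the adjusted p was 0.10. PAQR4, whose exons overlap those of PKMYT1 on the other strand, had a log2 fold change of -0.02 ± 0.09 (SE) in the same fit. KREMEN2, the other overlapping neighbour on that strand, rose by 0.98 ± 0.22 (SE, adjusted p = 0.0018, limma) there and by 0.82 ± 0.22 (adjusted p = 0.018) in the Scr clones.

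TOPBP1 was at 222, 218, 206 and 214 normalized CPM in the untreated KO libraries and at 187, 198, 187 and 185 in the treated ones. Its log2 fold change was -0.18 ± 0.07 (SE, adjusted p = 0.062), and the quasi-likelihood test of edgeR (adjusted p = 0.044) and DESeq2 (0.012) on recovered reads called it, as did limma with library size alone (-0.22, adjusted p = 0.028). ATR, ATM and CHEK2 had log2 fold changes of 0.09, 0.05 and 0.01, and ATRIP of -0.13, none of which passed the test. For ATM the 95% interval ran from -0.12 to 0.23 and for CHEK2, with the fewest reads, from -0.34 to 0.35.

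The 5 genes called lower stand beside 8.21% of the 14513 genes tested in the KO clones, and the 5 whose groups did not overlap in the lower direction beside 8.52%. The latter were CHEK1, WEE1, CLSPN, TOPBP1 and CDC25A. The median over the 10 genes was -0.26, beside 0.02 over all genes tested.

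**Figure D2:**
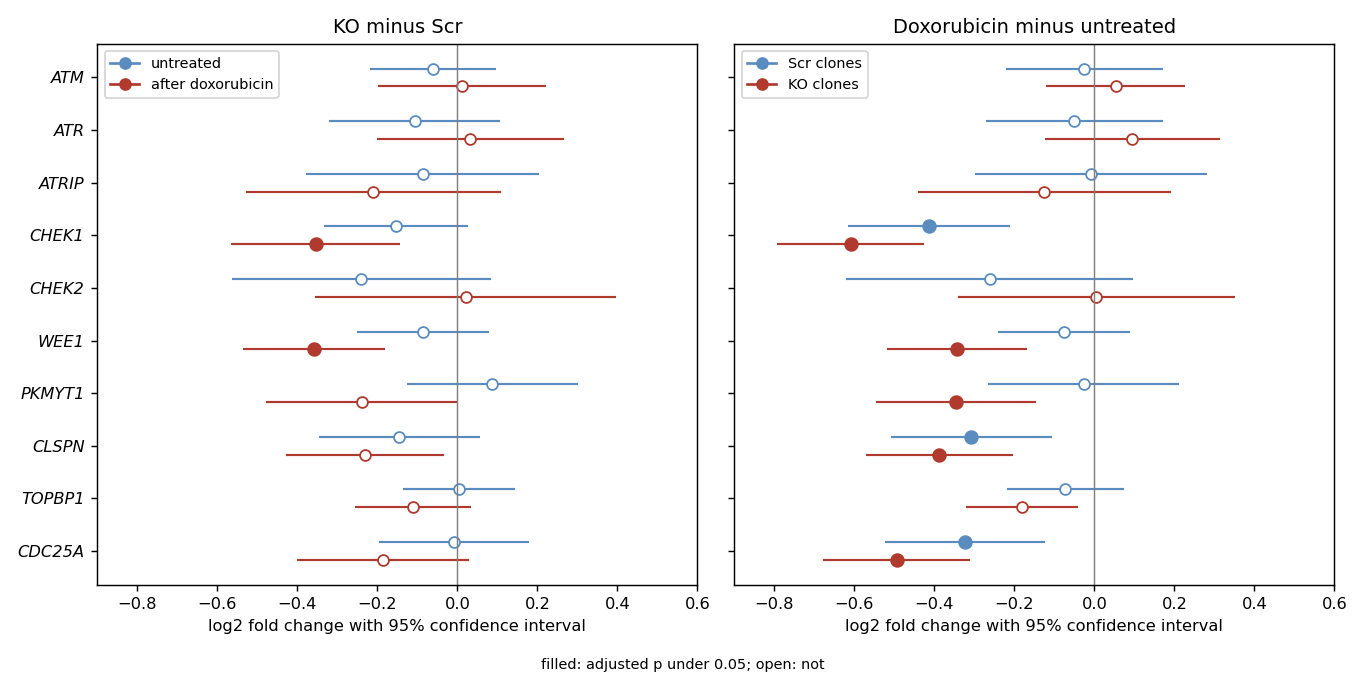
Log2 fold change of CPM + 1 with its 95% confidence interval for each checkpoint gene, KO minus Scr at left and doxorubicin minus untreated at right; filled points have an adjusted p under 0.05. With doxorubicin CHEK1 lies at -0.41 in Scr and -0.61 in KO clones, and WEE1 at -0.08 and -0.34.

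In the KO clones too, all 14 p53 target genes rose with the treatment (median log2 fold change 1.42), led by FAS (2.46 ± 0.24, SE), a death receptor, and BTG2 (1.95 ± 0.10). Of the 14 S phase genes 12 fell, with a median of -0.59, led by MCM6 (-1.02 ± 0.08) and UHRF1 (-0.96 ± 0.09). Of the 14 G2/M genes 11 fell, with a median of -0.41. CDC20, an activator of the anaphase-promoting complex, fell by 0.85 ± 0.10 (SE) on the log2 scale, and CENPE, a kinetochore motor, by 0.59 ± 0.10. The part of the S phase and G2/M genes in the decrease of the 5 checkpoint genes was not tested.

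**Figure D3:**
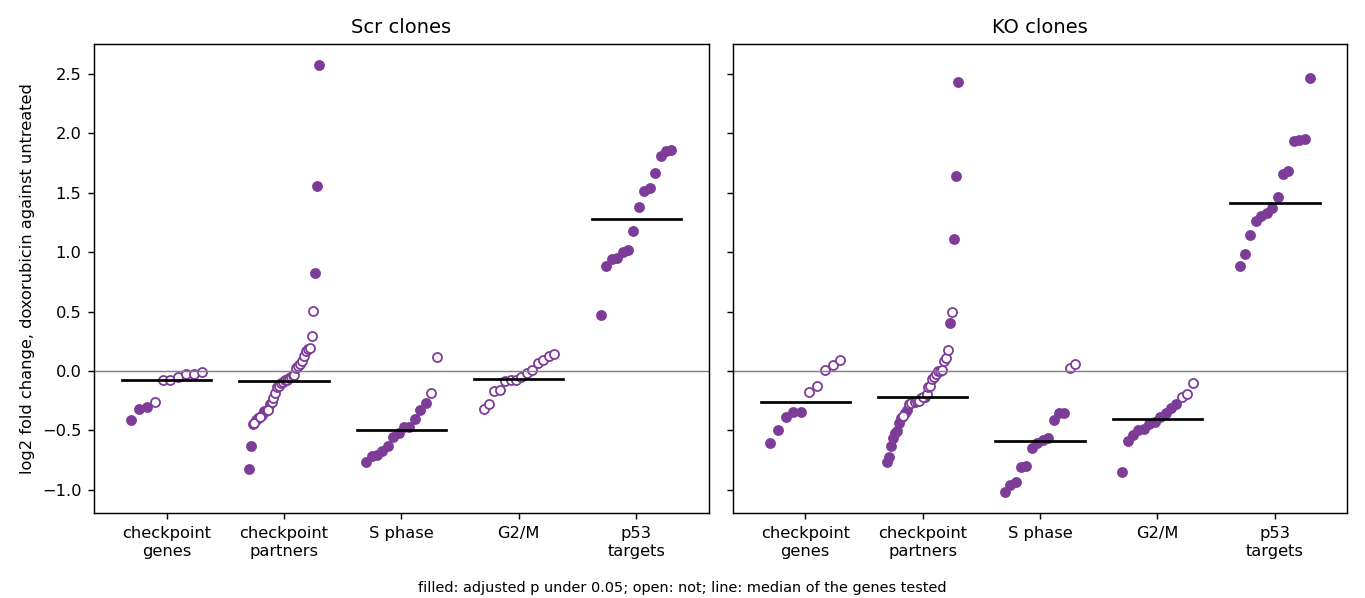
Log2 fold change with doxorubicin of each gene tested in the 10 checkpoint genes, the 40 checkpoint partners and the 14 S phase, 14 G2/M and 14 p53 target genes, in the Scr clones at left and the KO clones at right; filled points have an adjusted p under 0.05 and lines are medians. The p53 targets lie above 0 in both panels, with medians of 1.28 and 1.42, and the S phase genes mostly below, with medians of -0.50 and -0.59.

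A wider list of 40 genes that work beside these 10 in the checkpoint was counted as well. In the Scr clones 3 of the 38 tested rose with doxorubicin and 8 fell, beside 995 and 753 of the 14378 genes tested. The largest changes were in CDKN1A, which encodes the CDK inhibitor p21 (log2 fold change 2.57 ± 0.12, SE, from 57.1 to 337 CPM), PLK3, a stress-responsive kinase (1.56 ± 0.17), CCNE2, a G1/S cyclin (-0.82 ± 0.18), and PPM1D, the phosphatase that switches the checkpoint off (0.82 ± 0.08). In the KO clones 4 of the 37 tested rose and 13 fell, beside 1656 and 1191 of the 14513 genes tested. CDKN1A (2.43 ± 0.08, from 137 to 739 CPM), PLK3 (1.64 ± 0.14) and PPM1D (1.11 ± 0.08) rose there too, and CCNB1, the cyclin of CDK1 at mitotic entry, fell by 0.76 ± 0.10 (SE) on the log2 scale. Partner genes that fell in both genotypes included BRCA1, TIMELESS and RPA1, named here after their values were seen. BRCA1, a repair factor, had log2 fold changes of -0.37 ± 0.09 (SE) in Scr and -0.57 ± 0.08 in KO.

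Whether doxorubicin changed the checkpoint genes differently in the 2 genotypes was asked with an interaction term in 1 fit of the 16 libraries. None of the 10 genes was called by limma, by edgeR's quasi-likelihood test or by DESeq2. Limma called 0.0326% of the 15325 genes tested, and edgeR and DESeq2 called 10 and 58 genes. In limma 1 of the 10, WEE1, had an unadjusted p under 0.05, a threshold for which the share of all genes is not given here. The interaction of WEE1 was -0.27 on the log2 scale (95% interval -0.50 to -0.03, adjusted p = 0.55), and that of PKMYT1 was -0.32 (-0.65 to 0.01, adjusted p = 0.62). For CHEK1 it was -0.20 (-0.46 to 0.07, adjusted p = 0.75). CDC25A had -0.17, ATRIP -0.12, TOPBP1 -0.11, CLSPN -0.08, ATM 0.08, ATR 0.14 and CHEK2 0.27. The calls of WEE1 and PKMYT1 in the KO clones alone are therefore not shown to be particular to those clones. Of the partner genes PLK1, which marks WEE1 for destruction at mitotic entry, was called, with an interaction of -0.72 ± 0.13 (SE, adjusted p = 0.031).

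Within clones, the mean of the treated libraries was below that of the untreated ones in 4 of 4 clones for CHEK1, CLSPN, CDC25A, WEE1 and TOPBP1, beside 19.2% of the 15325 genes tested, and in 3 of 4 for ATRIP, CHEK2 and PKMYT1. These are signs of differences with no test. That of TOPBP1 was only -0.01 in Scr16 and -0.13 in Scr13. Treated and untreated libraries of WEE1 overlapped in both Scr clones, as did those of TOPBP1 in Scr16 and of CLSPN and CDC25A in Scr13. Those of TOPBP1 in Scr13 overlapped only on the values rescaled across treatments. As deposited, they were at 191 and 203 normalized CPM with doxorubicin and at 204 and 230 without. The difference of CHEK1 was -0.41 in Scr13, -0.42 in Scr16, -0.68 in KO11 and -0.53 in KO28, on the scale of log2(CPM + 1). That of WEE1 was -0.10 and -0.05 in the Scr clones and -0.34 and -0.35 in the KO clones. PKMYT1 was the least even, with 0.06 in Scr13, -0.11 in Scr16, -0.17 in KO11 and -0.53 in KO28. The means of ATM and ATR were below the untreated ones in 2 of 4 clones.

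**Figure D4:**
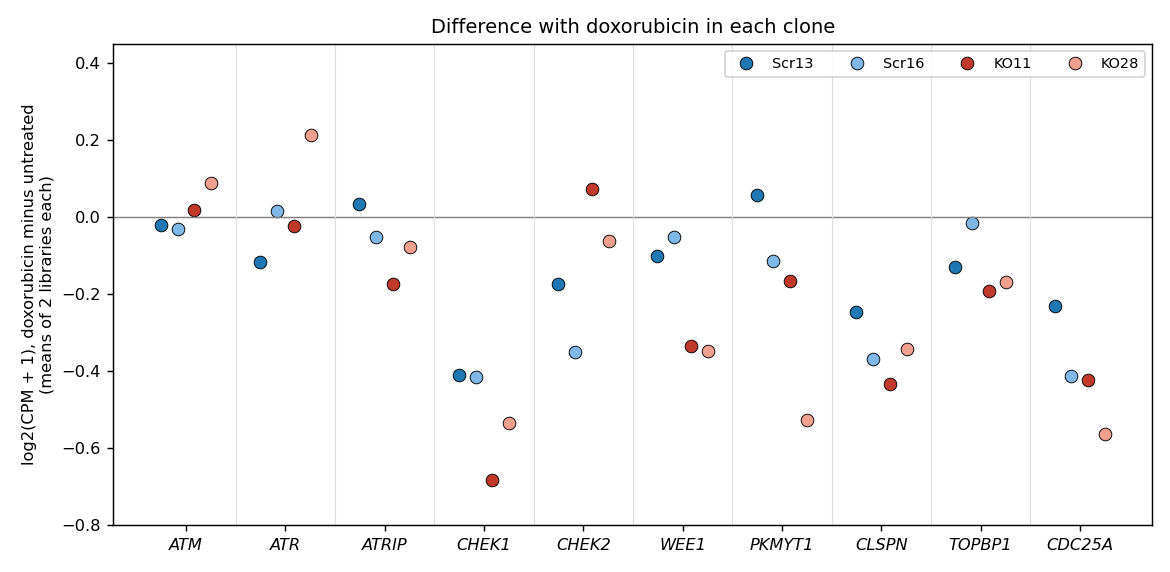
Difference of log2(CPM + 1) between doxorubicin and untreated cells (vertical axis) for each checkpoint gene in each of the 4 clones, from means of 2 libraries each. CHEK1 lies between -0.68 and -0.41 in all 4 clones, whereas ATM lies between -0.03 and 0.09.

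Without treatment the checkpoint genes did not differ detectably between KO and Scr. None of the 10 was called by limma, by edgeR's quasi-likelihood test or by DESeq2, beside 4.84% of the 14364 genes tested in limma. None had an unadjusted p under 0.05 in limma. The groups of libraries overlapped for all 10 genes, beside 9.29% of genes whose groups did not overlap in either direction. The lowest log2 fold change was that of CHEK2, at -0.24 (95% interval -0.56 to 0.08), with 15.04, 11.6, 15.8 and 14.2 normalized CPM in the KO libraries and 15.4, 17.4, 20.4 and 14.7 in the Scr libraries. CHEK1 had -0.15 (-0.33 to 0.03) and CLSPN -0.14 (-0.35 to 0.06). ATR had -0.11, ATRIP and WEE1 -0.09 each, ATM -0.06, CDC25A -0.01 and PKMYT1 0.09. TOPBP1, at 215 ± 6.93 normalized CPM in KO and 215 ± 13.04 in Scr (SD, n = 4 libraries each), had 0.00 (-0.14 to 0.14).

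In the same untreated libraries 1 of 37 partner genes differed, beside 4.84% of all genes tested. CDKN1A was at 136 ± 16.5 normalized CPM in KO and 57.0 ± 15.2 in Scr (SD, n = 4 libraries each), with a log2 fold change of 1.27 ± 0.14 (SE, adjusted p = 3.4e-06, limma). Of 13 p53 target genes 6 were higher in KO, with a median of 0.39, and BBC3 (0.77 ± 0.16, SE) and BTG2 (0.71 ± 0.14) changed most. Of 14 S phase genes 1 was called, MCM2, which was lower in KO by a log2 fold change of -0.75 ± 0.07 (SE), and none of the G2/M genes was. The median was -0.09 over the 10 checkpoint genes and -0.01 over all genes tested.

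After doxorubicin WEE1 and CHEK1 were lower in KO than in Scr, and no checkpoint gene was higher. WEE1 was at 78.7, 82.8, 88.2 and 74.2 normalized CPM in the treated KO libraries and at 98.7, 112, 95.8 and 110 in the treated Scr libraries. No KO library reached the lowest Scr library. The log2 fold change was -0.36 ± 0.09 (SE, adjusted p = 0.0082, limma), and the exact two-sided permutation test over the libraries gave p = 0.0286, the smallest it can give with 4 libraries against 4. Both tests count the 2 libraries of a clone as separate, so neither measures the spread between clones of a genotype. By clone, WEE1 stood at 80.8 in KO11 and 81.2 in KO28, against 105 in Scr13 and 103 in Scr16.

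CHEK1 was at 47.5, 55.5, 50.8 and 47.6 normalized CPM in the treated KO libraries and at 55.7, 70.5, 60.5 and 72.8 in the treated Scr libraries. The lowest Scr library lay just above the highest KO library. The log2 fold change was -0.35 ± 0.10 (SE, adjusted p = 0.030), with an exact permutation p of 0.0286. CLSPN groups did not overlap either, at 48.8 to 60.3 in KO and 61.6 to 72.3 in Scr, with the same exact permutation p, but its log2 fold change of -0.23 did not pass the test over all genes (95% interval -0.43 to -0.03, adjusted p = 0.16). PKMYT1 had -0.24 (-0.48 to 0.00, adjusted p = 0.25), ATRIP -0.21, CDC25A -0.19 and TOPBP1 -0.11. ATM, CHEK2 and ATR had 0.01, 0.02 and 0.03.

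The 2 genes called lower stand beside 4.17% of the 14572 genes tested, and the 3 whose groups did not overlap in the lower direction beside 6.42%. Neither call was made when KO11 or KO28 was left out, although the log2 fold changes were then -0.36 for WEE1 in both fits and -0.38 and -0.32 for CHEK1. Without KO11 the adjusted p was 0.11 for WEE1 and 0.15 for CHEK1, and without KO28 it was 0.069 and 0.25. Without Scr16 CHEK1 had -0.31 (adjusted p = 0.12), and with no filter on low values its adjusted p was 0.087. The call of CHEK1 was also lost in 5 of 8 fits that left out 1 library, namely the first KO11, either KO28, the second Scr13 or the second Scr16 library, with log2 fold changes of -0.36 to -0.30 and adjusted p-values of 0.062 to 0.12. PKMYT1 was called without the first Scr16 library, at -0.37 (adjusted p = 0.018). In the same comparison 5 of 8 mesenchymal markers were higher in KO and 1 was lower, beside 659 and 607 of the 14572 genes tested. The part of these markers in the lower WEE1 and CHEK1 was not tested.

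Cell cycle and p53 target genes were counted in the same comparison. Of 14 G2/M genes 12 were lower in KO and none was higher (median log2 fold change -0.43), and CCNB2 (-0.54 ± 0.10, SE) and BUB1B (-0.54 ± 0.10) changed most. Of 14 S phase genes 4 were lower, with a median of -0.24, led by MCM2 (-0.93 ± 0.08) and MCM6 (-0.51 ± 0.08). Of 14 p53 target genes 11 were higher in KO, with a median of 0.62, led by RRM2B (0.97 ± 0.12), a ribonucleotide reductase subunit, and FAS (0.96 ± 0.22). Of the 37 partner genes tested 2 were higher and 6 lower, and the 4 that changed most were CDKN1A (1.13 ± 0.08), PLK1 (-0.69 ± 0.12), CCNB1 (-0.65 ± 0.13) and AURKA, a mitotic kinase (-0.45 ± 0.12). The median was -0.20 over the 10 checkpoint genes and 0.01 over all genes tested. Over all 14572 genes tested, 659 were higher in KO and 607 lower. In the interaction none of the 14 G2/M, 14 S phase or 14 p53 target genes was called, with medians of -0.34, -0.14 and 0.23. The part of the G2/M and S phase genes in the lower WEE1 and CHEK1 was not tested.

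The clones of 1 genotype were also compared with each other over both treatments. Between KO28 and KO11 none of the 10 genes was called by limma, by edgeR's quasi-likelihood test or by DESeq2. Limma called 0.138% of the genes tested, and edgeR and DESeq2 called 10 and 43 genes. The log2 differences of the 10 genes ran from -0.23 to 0.14, and 2 genes, CDC25A and CLSPN, had an unadjusted p under 0.05, both lower in KO28. The share of all genes under that unadjusted threshold is not given here. Between Scr16 and Scr13 none was called by these 3 tools, beside 0.0348% of the genes tested in limma. None had an unadjusted p under 0.05 there, and the differences ran from -0.14 to 0.07.

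Across the 16 libraries the checkpoint genes fell into those that varied together and those that did not. CHEK1 and CLSPN had a Pearson r of 0.92 on the scale of log2(CPM + 1), CLSPN and CDC25A 0.91, CHEK1 and TOPBP1 0.90, and CHEK1 and WEE1 0.84. ATM had an r of -0.25 with CHEK1 and of 0.42 with ATR. These values describe libraries that share treatment, clone and scaling, and carry no test.

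**Figure D5:**
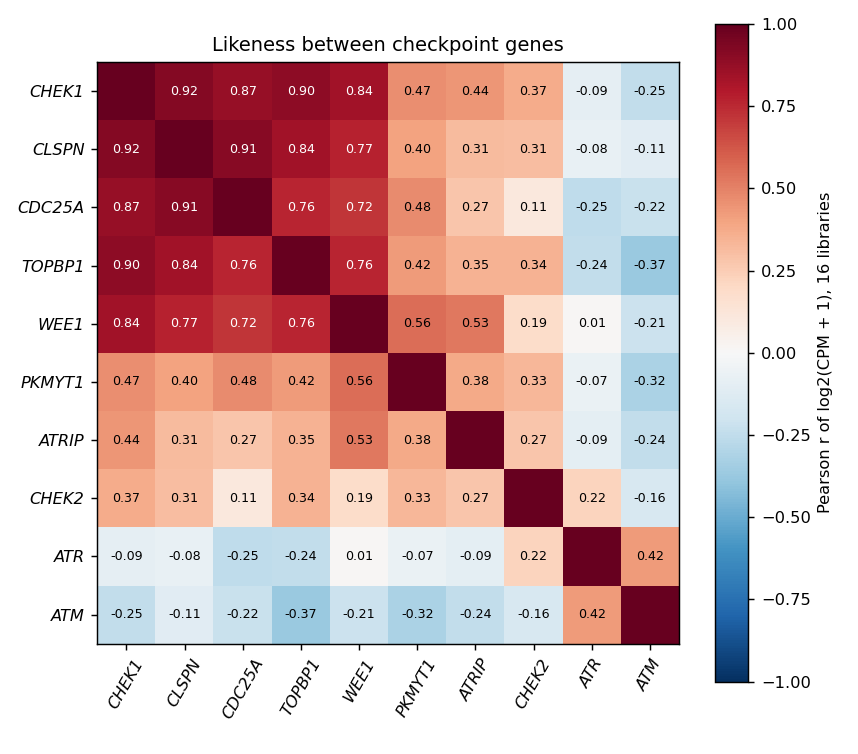
Pearson r of log2(CPM + 1) over the 16 libraries between each pair of checkpoint genes, with blue below 0 and red above. CHEK1, CLSPN, CDC25A, TOPBP1 and WEE1 form a block with r of 0.72 to 0.92, and ATM and ATR stand apart from it.

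Among 12378 genes with at least 1 CPM in every library, those most like CHEK1 were BRCA1 (r = 0.98), NCAPD3 (0.97) and SMC2 (0.96), a repair gene and a pair of condensin genes. CLSPN was most like SMC2 (0.95), DTL (0.95) and SMC1A (0.94), WEE1 like POLD1 (0.94), ARID1B (0.92) and CHAF1A (0.91), and TOPBP1 like CENPE (0.91), KIF15 (0.91) and GTSE1 (0.90). For CDC25A they were RNF144A (0.91), CLSPN (0.91) and WDCP (0.91), and for PKMYT1 H2AX (0.90), NELFB (0.88) and EFS (0.88). The genes most like the upstream kinases were less alike, with EMC1 (0.88), TRIM52 (0.73) and CYP4V2 (0.72) for ATR and PABIR3 (0.79), UBAP1L (0.71) and STRADA (0.70) for ATM. For ATRIP they were KLHL15 (0.83), TMEM62 (0.77) and CTNNBL1 (0.77), and for CHEK2 PPWD1 (0.83), TRAPPC2L (0.81) and CTBP2 (0.79).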

How the data were processed

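The authors sequenced poly(A) RNA of the 16 libraries. Per the submitters' processing notes, HISAT2 2.1.0, HTSeq, edgeR and GRCh38 were used, and the methods of the study name edgeR as the tool for differential expression. The annotation and the strand setting in counting are not given in the sources used here. The deposited values are a signal, counts scaled by an effective library size (normalized CPM), in 1 table for each treatment. The tables also hold the authors' own fold changes, p-values, q-values and ranks, which were not used. All columns of libraries were assigned, with 0 left over. Whole reads were recovered for 100% of the values, with a tolerance of 0.1 read and a largest deviation of 8.32e-05, so reads of both tables were rescaled with 1 set of TMM factors for the treatment comparisons. The floor of 3 reads covers counting error only, whereas the 95% intervals of fold changes come from the spread between libraries in the limma fit.

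KO and Scr were compared within each treatment with limma 3.58.1 (R 4.3.3), whose moderated test with a trend on abundance was applied to log2(normalized CPM + 1). These fits held no term for the clone, so the 2 libraries of a clone counted as separate. Treatments, their interaction with genotype and the clones were compared on log2(CPM + 1) with the clone or the treatment as a covariate. Genes with at least 1 CPM in at least 4 libraries of a fit were tested, p-values were adjusted over all genes tested with the Benjamini-Hochberg method, and an adjusted p under 0.05 is called here. Fold changes on this scale understate those of low genes. The exact permutation tests used scipy 1.17.1. The fits were also run on simulated data. Of 200 genes given a 1.5-fold difference between KO and Scr, 80% were recovered without treatment and 71% after doxorubicin. Of 200 genes given a 1.5-fold interaction 42% were recovered, and of 200 given a 2-fold interaction 84%. Whether these shares hold where clones of a genotype differ was not tested. Alternatives were a pseudocount of 0.25, no filter, library size alone, edgeR 4.0.16, DESeq2 1.42.0, a replicate block, other clone terms and leaving out libraries or clones.

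The 10 genes and the gene lists (40 checkpoint partners, 14 S phase, 14 G2/M and 14 p53 target genes, 12 adrenergic and 12 mesenchymal markers) were chosen with earlier results of these data known. All 10 genes are named in each comparison of groups, with TRPM2 and the 3 genes most alike across libraries. The called genes that changed most are also named, up to 4 partner genes and up to 2 S phase, G2/M or p53 target genes. Adrenergic and mesenchymal markers are named by level only. Symbols were found for 95.9% of the identifiers.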

Additional observations from a re-analysis of the deposited data

Results flagged for a closer look

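In 3 of 40 sets of 4 libraries, 1 library stood apart from the other 3 by Dixon's criterion, which chance meets in about 1 in 20 sets. ATRIP was at 13.6 normalized CPM in the first untreated KO28 library, against 16.7 to 17.1 in the other untreated KO libraries. TOPBP1 was at 198 normalized CPM in the second KO11 library after doxorubicin, against 185 to 187 in the other treated KO libraries. CDC25A was at 71.7 normalized CPM in the second Scr13 library after doxorubicin, against 60.7 to 60.8 in the other treated Scr libraries. No checkpoint gene had a called interaction of genotype and treatment.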

How the results depend on the processing

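The count of checkpoint genes called was 0 under every alternative for KO against Scr without treatment, for the interaction and between clones of 1 genotype. For KO against Scr after doxorubicin it was 2, and became 1 with no filter on low values, 0 without KO11, 0 without KO28 and 1 without Scr16, with a range of 1 to 3 when 1 library was left out. For doxorubicin in the Scr clones it was 3, and became 0 with no filter and 2 with edgeR, with a range of 1 to 3 when 1 library was left out. For doxorubicin in the KO clones it was 5, and became 6 with library size alone, edgeR or DESeq2, which each called TOPBP1, and 4 with no filter, with 4 to 5 when 1 library was left out. The cause of these losses was not tested.

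Deviations of same-numbered KO and Scr libraries from their group means correlated between -0.062 and 0.076 without treatment and between 0.0035 and 0.066 after doxorubicin. For different numbers the ranges were -0.11 to 0.091 and -0.061 to 0.015. Each group mean is taken over 2 clones, so these values cannot decide whether replicate numbers pair the libraries. With a replicate block the counts of checkpoint genes were 0, 2, 3, 5 and 0 for the 5 comparisons in the order above (untreated, after doxorubicin, Scr, KO, interaction), unchanged. Over all genes the block took the calls from 1266 to 1365 after doxorubicin and from 1748 to 2074 in the Scr clones.

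No called gene reversed. Uncalled values near 0 changed sign as follows. For KO against Scr without treatment, PKMYT1 was -0.077 without KO28, TOPBP1 -0.0096 with library size alone, -0.031 without KO11 and -0.012 without Scr16, and CDC25A 0.0066 with the clone as a random block, 0.067 without KO28 and 0.014 without Scr16. After doxorubicin, ATM was -0.0078 with library size alone, -0.0025 with edgeR, -0.0045 with reads summed per clone, -0.032 without KO28 and -0.0075 without Scr13, ATR was -0.086 without KO28, and CHEK2 was -0.0035 with summed reads, -0.011 with the random block and -0.020 without Scr16. With doxorubicin, edgeR gave ATRIP 0.00054 in Scr clones and CHEK2 -0.00073 in KO clones, where library size alone gave CHEK2 -0.028. When 1 library was left out, the ranges that crossed 0 were -0.021 to 0.037 (TOPBP1) and -0.069 to 0.038 (CDC25A) without treatment, -0.081 to 0.091 (ATM), -0.029 to 0.081 (ATR) and -0.094 to 0.11 (CHEK2) for KO against Scr after doxorubicin, -0.13 to 0.074 (ATM), -0.036 to 0.0066 (ATRIP) and -0.13 to 0.11 (PKMYT1) for doxorubicin in Scr clones, -0.0064 to 0.11 (ATM) and -0.10 to 0.11 (CHEK2) in KO clones, and -0.021 to 0.18 (ATM) and -0.14 to 0.0060 (CLSPN) for the interaction.

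Over all genes, calls without treatment went from 695 to 368 with no filter, 330 without Scr13 and 327 without Scr16. After doxorubicin they went from 1266 to 510 without KO11 and 575 without KO28, with 814 at the lowest when 1 library was left out. Doxorubicin in Scr clones went from 1748 to 808 with no filter and to 1057 at the lowest when 1 library was left out. The interaction went from 5 to 2 with no filter, 3 with a pseudocount of 0.25 or no clone term, 10 with edgeR, 58 with DESeq2, 24 with the replicate block and 1 to 18 when 1 library was left out. KO28 against KO11 went from 20 to 0 with no filter, 10 with edgeR, 43 with DESeq2 and 3 to 91 when 1 library was left out, and Scr16 against Scr13 from 5 to 0, 2 with edgeR and 1 to 28. CHEK2, with as few as 113 reads, has the widest intervals of the 10 genes.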
